A study of Bos taurus with 6 samples.

Results

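The 7 genes followed here are markers of myeloid cells, measured on 6 arrays of bovine bone marrow mesenchymal stem cells (MSCs). They were AIF1, CD53, CD68, CD14, S100A12, GPNMB and SLC11A1, and every probe set whose only gene symbol in the platform annotation was 1 of these names was taken. This gave 7 of the 9155 named genes and 10 of the 24016 probe sets, with 2 probe sets for CD14, 3 for GPNMB and 1 for each of the other 5 genes. The 4 genes AIF1, CD53, CD68 and CD14 are common macrophage and blood cell markers. S100A12, GPNMB and SLC11A1 were taken up because they were among the largest falls with TGF-beta3 in an earlier reading of the same arrays.

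The study asked how a chondrogenic growth factor and later compression alter MSCs in agarose, a hydrogel in which cells are held apart and free-swelling. MSCs are adherent marrow cells that can form cartilage, bone and fat, and transforming growth factor beta 3 (TGF-beta3) is used to drive them towards cartilage cells. All 6 conditions were bovine MSCs in agarose in a chemically defined medium, with 1 array each. Cultures without TGF-beta3 were taken at day 3, day 21 and day 42, and cultures with it at day 21 and day 42. A further culture with TGF-beta3 was kept unloaded for 21 days and then compressed dynamically for 21 more days, to day 42. The labels give neither the number of donor animals nor pooling, and MSCs are named there by source, without a sort against blood cells.

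Myeloid cells are the monocytes, macrophages, granulocytes and osteoclasts that arise from haematopoietic stem cells in the marrow. Adherence to plastic, by which marrow MSCs are commonly obtained, can also retain macrophages. The 7 genes cover different parts of a phagocyte. AIF1 is a calcium-binding protein that bundles actin, CD53 is a leukocyte tetraspanin, and CD14 is the surface co-receptor for bacterial lipopolysaccharide. CD68 is a glycoprotein of the lysosome membrane, and SLC11A1 (NRAMP1) pumps divalent metal ions out of the phagosome. S100A12 (calgranulin C) is a secreted calcium-binding protein of granulocytes and monocytes, and GPNMB is a transmembrane glycoprotein of lysosome-rich macrophages, osteoclasts and pigment cells. Several of them are not confined to myeloid cells.

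Each value is the authors' linear MAS5 signal, on arrays whose median signals lay between 22.3 and 34.9. Signals under 15.1, the 40th percentile over the 6 arrays, were raised to that floor and have no order below it. Hybridisation spikes, foreign transcripts added in fixed amounts, had a median signal of 2139 to 2981 on 4 arrays. On the day 42 arrays with TGF-beta3 it was 6067 unloaded and 4444 loaded. Spike signals on the day 42 pair were thus log2 1.43 higher with TGF-beta3. The part of this shift in any result was not tested.

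**Figure D1:**
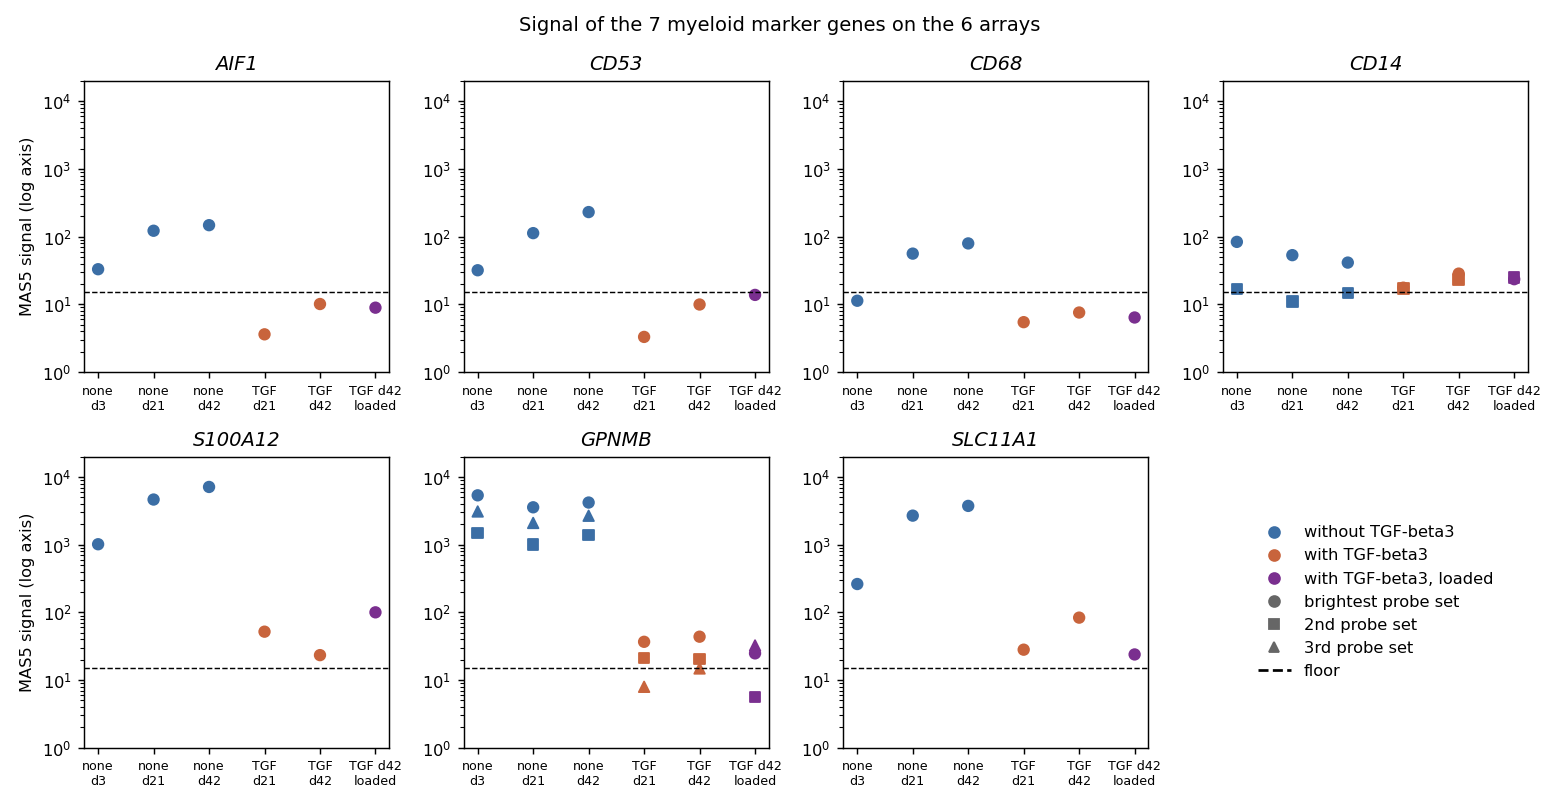
MAS5 signal (log axis) of each member on the 6 arrays, 1 panel per gene and 1 point per array, with the floor of 15.1 as a dashed line and the other probe sets of CD14 and GPNMB as squares and triangles. AIF1, CD53 and CD68 lie under the floor on every array with TGF-beta3, and S100A12, GPNMB and SLC11A1 drop from 2695 or more at days 21 and 42 without it to 100.3 or less on their brightest probe sets.

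AIF1, CD53 and CD68 were measurable without TGF-beta3 and under the floor with it. AIF1 had signals of 33.1, 123 and 148 at days 3, 21 and 42 without TGF-beta3. With it the signals were 3.61 at day 21, 10.1 at day 42 and 8.94 at day 42 after loading. The groups did not overlap, and with TGF-beta3 AIF1 was lower by at least 8.09-fold (day 21) and 9.78-fold (day 42).

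CD53 had signals of 31.9, 113 and 231 at days 3, 21 and 42 without TGF-beta3. With it CD53 stood at 3.30, 9.95 and, after loading, 13.8. All 3 arrays with TGF-beta3 were under the floor and all 3 without it above. The bounds for CD53 were 7.46-fold lower at day 21 and 15.3-fold lower at day 42.

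CD68 had signals of 11.3, 56.3 and 79.6 at days 3, 21 and 42 without TGF-beta3, and 5.46, 7.58 and, after loading, 6.40 with it. CD68 was lower with TGF-beta3, by 3.72-fold or more at day 21 and by 5.26-fold or more at day 42. Its day 3 array without TGF-beta3 was under the floor too, so the 6 arrays did not separate for CD68.

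Over days 21 and 42 together, TGF-beta3 was tested on 4 arrays, 2 a side, with limma, a term for day and Benjamini-Hochberg adjustment over 14839 probe sets. Of the 4 blood cell markers, 3 fell, where 7.7% of the 6835 named genes tested fell. The mean log2 difference was -3.15 ± 0.72 (SE) for AIF1 (adjusted p = 0.00118 by limma), -3.42 ± 0.72 for CD53 (adjusted p = 0.000476 by limma) and -2.14 ± 0.66 for CD68 (adjusted p = 0.0203 by limma). All 3 were lower with TGF-beta3 on both days. The floor makes each of these means a bound, and the genes entered the test only through the arrays without TGF-beta3, so they could only come out lower. Of the 155 genes under the floor on both TGF-beta3 arrays tested, 50.3% fell, so nothing is read from the count of 3. With the floor at a signal of 100, AIF1 (mean log2 -0.43, adjusted p = 0.237 by limma) and CD53 (-0.69, adjusted p = 0.0774 by limma) did not pass, and CD68 was not tested. With the floor at the 60th percentile the mean of CD68 was -0.27 (adjusted p = 0.55 by limma). The fit had 1 residual degree of freedom, so its errors rest mainly on the spread pooled over probe sets, and the 2 days are not known to be separate donors. Without the term for day, the adjusted p of CD68 was 0.073 by limma. In bulk RNA, fewer cells of a type and less RNA per cell cannot be told apart, here and in every result below.

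CD14 did not pass, and its probe sets differed in direction. The brighter one had signals of 83.9, 53.4 and 41.5 at days 3, 21 and 42 without TGF-beta3. With it the signals were 17.6 at day 21, 28.5 at day 42 and 23.6 after loading, all below those without it. CD14 was 3.03-fold lower at day 21 but 1.46-fold lower at day 42, and over both days the mean was log2 -1.07 ± 0.67 (adjusted p = 0.316 by limma). The other probe set lay near the floor on all arrays, at 16.8, 11 and 14.8 without TGF-beta3 and 17.2, 23.2 and 24.9 with it. Its mean log2 difference was 0.40 ± 0.48 (adjusted p = 0.66 by limma), and it passed the filter only through arrays with TGF-beta3. At these signals a change in CD14 could not be shown in either direction.

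S100A12, GPNMB and SLC11A1 had much larger differences, and since they were chosen for them, their values are given without a test. S100A12 had signals of 1018, 4659 and 7152 at days 3, 21 and 42 without TGF-beta3. With it the signals were 51.9 at day 21, 23.4 at day 42 and 100.3 after loading. The highest array with TGF-beta3, the loaded one, was still below the lowest without it. S100A12 was 89.7-fold lower at day 21 and 306-fold lower at day 42.

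SLC11A1 had signals of 263, 2695 and 3753 at days 3, 21 and 42 without TGF-beta3, and of 28.1, 83.7 and, after loading, 23.9 with it. The groups did not overlap. SLC11A1 was 95.8-fold lower at day 21 and 44.8-fold lower at day 42, so that the day 42 difference was the smaller for SLC11A1 and the larger for S100A12.

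GPNMB had 3 probe sets, which moved alike. On the brightest, the signals were 5378, 3579 and 4208 at days 3, 21 and 42 without TGF-beta3 and 36.8, 43.8 and, after loading, 24.8 with it. GPNMB was 97.3-fold lower at day 21 and 96.1-fold lower at day 42. The dimmest probe set had 1015 without and 21.2 with TGF-beta3 at day 21, and 1387 without and 20.6 with it at day 42. The remaining one had 2100 against 7.95 and 2682 against 14.8, under the floor with TGF-beta3 on both days. In the order given, the 3 probe sets differed by log2 -6.60, -5.58 and at most -7.12 at day 21 and by -6.59, -6.08 and at most -7.47 at day 42.

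**Figure D2:**
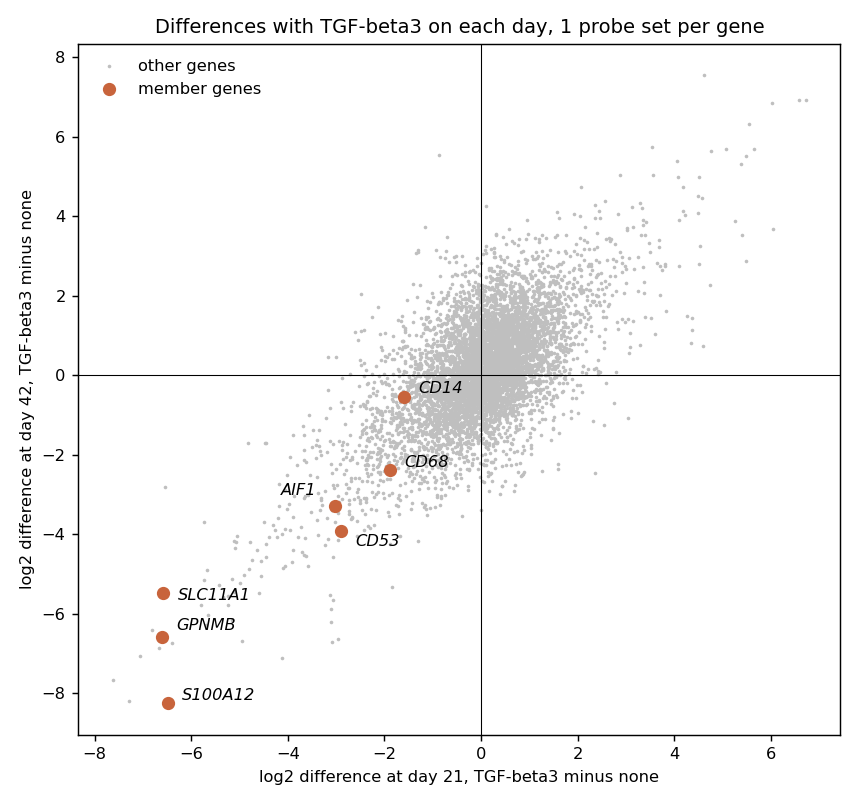
Log2 difference with TGF-beta3 at day 21 (x axis) and at day 42 (y axis) for 6748 genes, 1 point per gene on its brightest probe set with floored values, and the 7 members in orange. S100A12, GPNMB and SLC11A1 lie at the lower left edge, AIF1, CD53 and CD68 between log2 -1.89 and -3.93 on both days, and CD14 near the bulk of genes.

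By size alone, each gene was counted on its brightest probe set. All 7 members were at least 2-fold lower with TGF-beta3 at day 21, where 14% of 6938 genes were. At day 42 it was 6 of 7, all but CD14, where 15.7% of 7566 genes were. The other CD14 probe set was not lower at day 21, with a signal of 17.2 with TGF-beta3 against 11, under the floor, without it. The 2 days share no array, but as 3 members were chosen from this contrast, nothing is read from these counts. Of 6835 genes ordered by their mean difference from the most negative, S100A12 stood at rank 3, GPNMB at 7, SLC11A1 at 9, CD53 at 82, AIF1 at 102, CD68 at 253 and CD14 at 835. Under quantile normalization and under median centring each member kept its direction, which for AIF1, CD53 and CD68 was the only one open. On 6 of the 7 brightest probe sets the 3 arrays with TGF-beta3 lay below the 3 without it, CD68 being the exception, as they did for 12.3% of 8020 genes. The 3 genes chosen for their falls are among these 6 and hold the leading ranks, so nothing is read from this count or the ranks.

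Time in culture without TGF-beta3 split the members. From day 3 to day 21, 5 of 7 were at least 2-fold higher, against 7.03% of 6759 genes. None was at least 2-fold lower, against 4.72%. S100A12, SLC11A1 and GPNMB were chosen for falls measured in part against this day 21 array. All 7 were chosen with earlier results known, so nothing is read from these counts. SLC11A1 was 10.3-fold higher, from 263 to 2695, and S100A12 was 4.58-fold higher. AIF1 was 3.70-fold, CD53 3.54-fold and CD68 at least 3.72-fold higher. CD14 and GPNMB went the other way, by less than the 2-fold threshold. CD14 was 1.57-fold lower and GPNMB 1.5-fold lower, with its other 2 probe sets 1.48-fold lower each. Spike signals were log2 0.44 lower at day 21 than at day 3, and the part of this shift in these differences was not tested. With 1 array a day none of this has a replicate check.

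**Figure D3:**
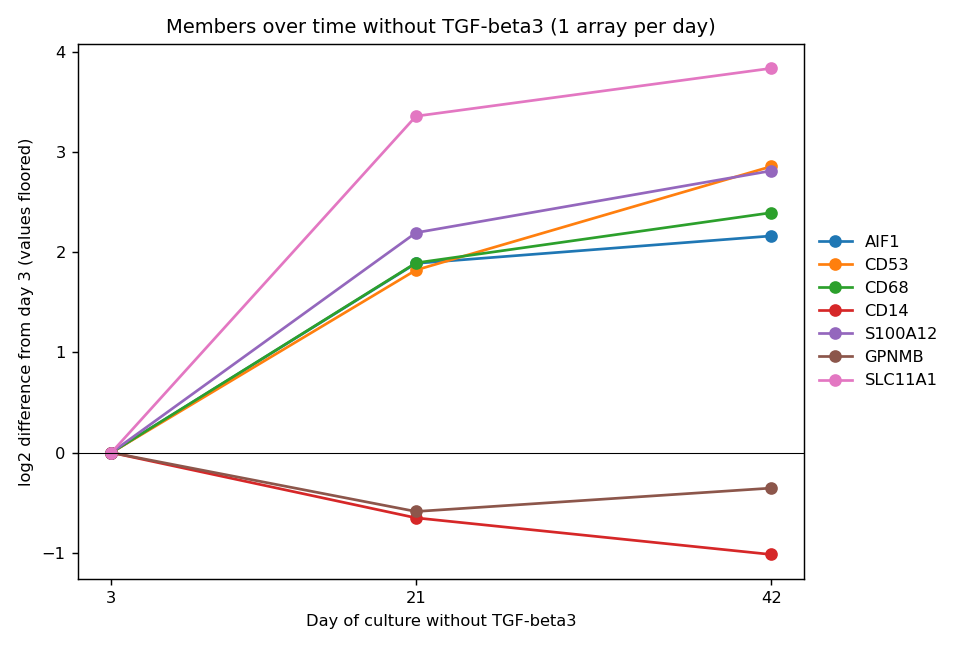
Log2 difference from day 3 (floored signal) of the brightest probe set of each member at days 21 and 42 of culture without TGF-beta3, 1 array per day. The 5 other members lie above day 3 at both later days, by log2 1.82 to 3.36 at day 21, while GPNMB and CD14 lie below it.

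Between day 21 and day 42 without TGF-beta3 the members differed less. CD53 was 2.05-fold higher, the only member past 2-fold, where 3.83% of 6684 genes were higher. S100A12 was 1.53-fold, CD68 1.42-fold, SLC11A1 1.39-fold, AIF1 1.21-fold and GPNMB 1.18-fold higher, and CD14 was 1.29-fold lower. The order of the 3 days was thus the same for SLC11A1, S100A12, AIF1, CD53 and CD68, with day 42 highest and day 3 lowest, and it was reversed for CD14.

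With TGF-beta3, 3 members (AIF1, CD53 and CD68) were under the floor at both days and have no difference to give. Of the other 4, SLC11A1 was 2.98-fold higher at day 42 than at day 21, where 19.7% of 7474 genes were at least 2-fold higher. S100A12 was 2.22-fold lower, where 11.1% were lower. CD14 was 1.62-fold and GPNMB 1.19-fold higher. Spike signals were log2 1.26 higher at day 42 in this pair.

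After 21 days of compression every member stayed below its levels without TGF-beta3 on its brightest probe set, apart from CD68, which was under the floor at day 3 as well. AIF1, CD53 and CD68 stayed under the floor on the loaded array. S100A12 was 4.29-fold higher after loading, from 23.4 to 100.3, where 8.41% of 7703 genes were at least 2-fold higher. SLC11A1 was 3.50-fold lower, from 83.7 to 23.9, where 7.41% were lower. The brightest GPNMB probe set was 1.76-fold lower and the dimmest at least 1.36-fold lower, but the remaining one was at least 2.14-fold higher, so GPNMB had no single direction. CD14 was 1.21-fold lower on 1 probe set and 1.07-fold higher on the other. With the floor at a signal of 100 no member was past 2-fold. These differences stand on 1 array a side at signals within a few fold of the floor.

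The label was set against other genes of myeloid and blood cells, in lists chosen with earlier results known. Among other monocyte and macrophage surface genes, 13 of 26 had a named probe set, 6 were tested, 2 fell and 1 rose, with a median log2 difference of -0.98. The median over all 6835 genes tested was 0.13. The scavenger receptor MSR1 had signals of 49.0, 86.1 and 140.3 at days 3, 21 and 42 without TGF-beta3 and of 0.80, 3.87 and, after loading, 35.2 with it (mean log2 -2.86 ± 0.71, adjusted p = 0.00308 by limma). The IgG receptor FCGR1A stood at 41.3, 83.3 and 56.7 without and 13.7, 2.07 and 1.27 with it (-2.18 ± 0.66, adjusted p = 0.0187 by limma). Both were above the floor on the 3 arrays without TGF-beta3, though the other 2 MSR1 probe sets were under it at day 42 with and without TGF-beta3. The cytokine receptor subunit CSF2RB went the other way, with 11.1, 1.93 and 0.58 without and 111, 493 and 265 with it (3.95 ± 0.73, adjusted p = 6.0e-05 by limma). MSR1 and FCGR1A, like LCP1, ACP5, TSPAN15 and VCAM1 below, were under the floor on both TGF-beta3 arrays tested and could only come out lower. CSF2RB, HBM and TSPAN5 were under it on both arrays without TGF-beta3 and could only come out higher. The means of these 9 genes are bounds, and the other 18 of the 27 calls in the 13 lists had a direction open to the test.

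Several defining myeloid genes were at or near the floor on all arrays. ITGAM, the CD11b integrin chain, and the co-stimulatory CD86 were under it on every array, and CSF1R, the receptor for the macrophage growth factor, was between 3.64 and 29.3. The adaptors TYROBP and FCER1G were above the floor on the 3 arrays without TGF-beta3, and highest at day 3. In order of day, TYROBP had signals of 37.6, 32.3 and 24 without TGF-beta3 and 3.73, 12.98 and, after loading, 21.2 with it. FCER1G had 51.4, 42.04 and 29.7 without TGF-beta3 and 9.78, 18.5 and, after loading, 22.1 with it. For both adaptors the groups did not overlap, but neither passed (adjusted p = 0.301 and 0.241 by limma). The summed signal of the 13 surface genes was 232 to 297 on the 3 arrays without TGF-beta3 and 179 to 607 on the 3 with it, where CSF2RB made up most of the higher sums. On this array 6 of the 13 were under the floor throughout.

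Genes listed as pan-leukocyte had differences of both signs. Of 7 tested, 1 fell and none rose, with a median log2 difference of 0.31, against 0.13 over all 6835 genes tested. On the unloaded day 42 arrays, 64.9% of probe sets were above the floor with TGF-beta3 and 54.9% without it. The part of this in these differences was not tested. The actin bundler LCP1 (L-plastin) had signals of 93.8, 130 and 71.4 at days 3, 21 and 42 without TGF-beta3 and 2.91, 13.2 and, after loading, 24.8 with it (mean log2 -2.67 ± 0.70, adjusted p = 0.00542 by limma). PTPRC (CD45), the defining surface phosphatase of blood cells, stood at 16, 63.6 and 48.2 without and 0.41, 20.1 and 3.36 with it. It did not pass (-1.67 ± 0.65, adjusted p = 0.0835 by limma). Another PTPRC probe set was at 21.5, 39.98 and 21.1 without TGF-beta3 and at 0.167, 1.27 and 5.79 with it. On that probe set the groups did not overlap. Its mean log2 difference of -0.94 is a bound, since its arrays with TGF-beta3 were under the floor. The remaining PTPRC probe set was under the floor on every array. The summed signal of the 10 genes measured was 233 to 304 without and 85.8 to 322 with TGF-beta3. Phagocyte oxidase and granule genes had 1 of 3 tested rise, the oxidase subunit NCF4 (2.63 ± 0.61, adjusted p = 0.00147 by limma), at signals of 38.0 to 49.7 without and 182 to 372 with TGF-beta3. Myeloperoxidase (MPO), a granulocyte enzyme, was under the floor on all 3 arrays without TGF-beta3.

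Markers of other marrow cells were mostly dim. Of 13 lymphocyte genes 9, of 7 red cell and platelet genes 3 and of 6 endothelial genes 3 were under the floor on every array. Each of these lists had 1 gene tested, of which HBM, a haemoglobin subunit, rose (2.63 ± 0.69, adjusted p = 0.00584 by limma). Of 13 mesenchymal stromal genes tested, 3 rose and 2 fell. NT5E (CD73), COL1A1 and COL1A2 rose and CD44 and VCAM1 fell, and the intermediate filament VIM was between 4105 and 7692 on every array. No cell type is named here as the source of the signals, and the source was not tested.

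**Figure D4:**
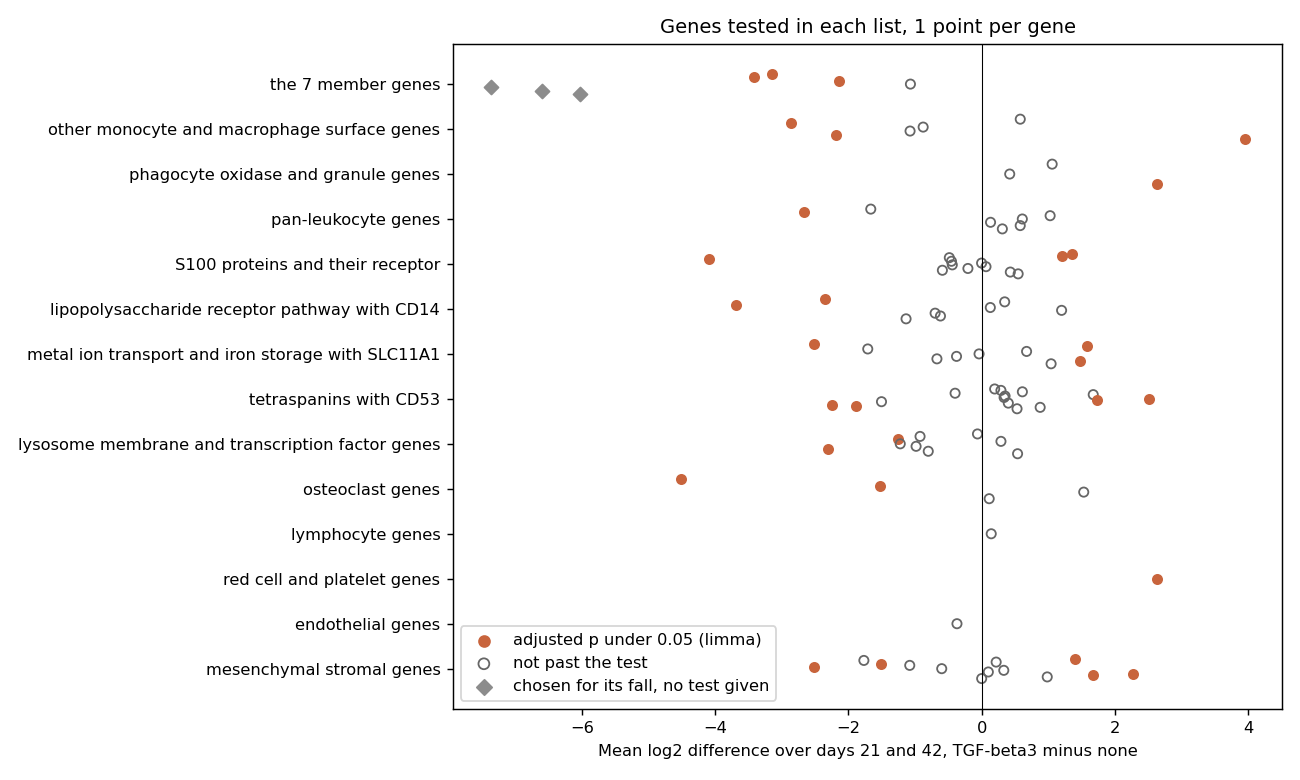
Mean log2 difference with TGF-beta3 over days 21 and 42 for each gene tested, 1 point per gene, in the 7 members and in 13 lists. Filled orange points passed limma at an adjusted p under 0.05, open points did not, and grey diamonds are S100A12, GPNMB and SLC11A1, for which no test is given.

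The relatives of S100A12 were measured on the same arrays. S100A8, which pairs with S100A9 as calprotectin in granulocytes and monocytes, had signals of 675, 3138 and 4834 at days 3, 21 and 42 without TGF-beta3. With it S100A8 stood at 248, 210 and, after loading, 323, and it fell (mean log2 -4.10 ± 0.34, adjusted p = 1.1e-13 by limma). S100A9 did not pass (-0.45 ± 0.47, adjusted p = 0.594 by limma), with signals of 36.5, 150 and 306 without and 89.1, 275 and 248 with TGF-beta3 and a mean log2 difference of 0.20 on its other probe set. Of the 12 S100 and receptor genes tested, S100A1 and S100A2 rose, S100A8 fell and 9 did not pass. AGER, a receptor for S100A12, was between 3.49 and 39.1 and under the floor without TGF-beta3.

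Partners of CD14 in sensing lipopolysaccharide were mixed. Of 8 tested, 2 fell and none rose. LBP, which hands lipopolysaccharide to CD14, stood at 244 without and 8.36 with TGF-beta3 at day 21, and at 337 and 32.4 at day 42 (mean log2 -3.70 ± 0.67, adjusted p = 4.2e-05 by limma). It was under the floor at day 3 without TGF-beta3, at 0.29. TLR2, a receptor for bacterial lipoproteins, went from 158 to 38.4 and from 227 to 35.5 (-2.36 ± 0.66, adjusted p = 0.0094 by limma). TLR4, the signalling receptor of the complex, was between 25.9 and 48.3 on all 6 arrays and did not pass (adjusted p = 0.803 by limma).

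Metal transporters beside SLC11A1 also moved apart. Of 9 genes of metal transport and iron storage tested, 1 fell and 2 rose. SLC11A2 (DMT1), the relative of SLC11A1 that imports iron, stood at 143 without and 42.0 with TGF-beta3 at day 21, and at 165 and 17.0 at day 42 (-2.52 ± 0.71, adjusted p = 0.0103 by limma). SLC39A14, a zinc and iron importer, rose (1.58 ± 0.37, adjusted p = 0.00151 by limma), as did the copper-binding ferroxidase CP (1.47 ± 0.35, adjusted p = 0.00194 by limma). The ferritin chains FTH1 and FTL did not pass.

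Of 15 tetraspanins, the family of CD53, 2 fell and 2 rose. TSPAN14 (-2.25 ± 0.71, adjusted p = 0.0248 by limma) and TSPAN15 (-1.89 ± 0.64, adjusted p = 0.0394 by limma) fell, and TSPAN5 and TSPAN6 rose. The tetraspanins CD9 and CD63, found on many cell types, did not pass. Of 9 genes of the lysosome membrane and its transcription factors, 2 fell and none rose, with a median log2 difference of -0.93. MITF, a transcription factor known to drive GPNMB in pigment cells and osteoclasts, had signals of 148, 78.2 and 124 at days 3, 21 and 42 without TGF-beta3 and 13.5, 26.3 and, after loading, 4.88 with it. It fell (-2.30 ± 0.71, adjusted p = 0.0222 by limma), as did the lysosomal receptor SCARB2 (-1.26 ± 0.35, adjusted p = 0.00881 by limma). LAMP1, a main lysosome membrane protein, did not pass (adjusted p = 0.936 by limma).

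Osteoclasts, the bone-resorbing relatives of macrophages, express GPNMB as well. Of 4 osteoclast genes tested 2 fell. The acid phosphatase ACP5 (TRAP) had signals of 102, 378 and 317 at days 3, 21 and 42 without TGF-beta3 and 12.4, 2.06 and, after loading, 17.5 with it (-4.51 ± 0.68, adjusted p = 1.5e-06 by limma), and its other 2 probe sets were also lower. The collagen-degrading cathepsin CTSK, also known from fibroblasts, went from 3210 to 1222 and from 4188 to 1317 (-1.53 ± 0.35, adjusted p = 0.00123 by limma). MMP9, the gelatinase of osteoclasts and granulocytes, was above the floor only at day 21 with TGF-beta3, at 23.9. Of the 27 calls, 5 remained without the term for day (ACP5, CTSK, LBP, S100A8 and SLC39A14) and 15 without a variance trend. Fits with no term for day and 1 array fewer kept 19 of the 27 without the TGF-beta3 array of day 42 and 24 without that of day 21. With either control array left out, most calls were not kept. Genes under the floor on both TGF-beta3 arrays, such as MSR1, LCP1 and ACP5, were not tested there.

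The genes most like each member were sought by Pearson's r of floored log2 signal over the 6 arrays, among 1987 genes with a range of at least log2 2. The arrays fall into those with and without TGF-beta3, and this split alone gives a high r to any gene that follows it, so r is a description. For GPNMB the top genes were the lysosomal protease CTSS (r = 0.99971), HSD17B11 and RNASE6. CTSS had signals of 485, 429 and 466 at days 3, 21 and 42 without TGF-beta3 and 55.0, 56.8 and, after loading, 44.2 with it, without a higher level at the later days. For S100A12 they were the aldehyde dehydrogenase ALDH1A1 (r = 0.996), MGST1 and the copper transporter SLC31A2. ALDH1A1 went from 240 at day 3 to 1003 and 1091 at days 21 and 42, and was at 28.3, 2.42 and, after loading, 64.2 with TGF-beta3, where the loaded array was also the highest.

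For the other members the closest genes were mostly not blood cell genes by name. AIF1 was most like KLB (r = 0.998), JUP and ELOVL6, a fatty acid elongase, and CD53 was most like S100G (r = 0.998), GSDMB and ACSL1, a fatty acid activating enzyme. CD68 was most like RAB40B (r = 0.99995), RSPO3 and CCDC69, all under the floor on the same 4 arrays as CD68, which sets 4 of the 6 points equal. SLC11A1 was most like KIF3C (r = 0.998), HADHB, an enzyme of fatty acid oxidation, and TRAPPC2L. CD14 was most like TMEM254 (r = 0.989), the cathepsin CTSV and KLHL24. TMEM254 shared with CD14 its highest level at day 3, at 951, against 546 and 478 at days 21 and 42 without TGF-beta3. Among the members themselves, the r of CD14 was lowest with CD68, at 0.34, and highest with GPNMB, at 0.89. GPNMB also had its lowest r with CD68, at 0.67, while AIF1 and CD53 had r = 0.99 with each other.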

How the data were processed

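Total RNA was, per the labels' protocols, taken up by TRIZOL-chloroform, amplified with the NuGEN ribo-SPIA method, labelled with biotin and hybridised to Affymetrix bovine arrays, 1 per condition. The table deposited by the authors holds a linear intensity for each probe set. MAS5 is named in the submitters' processing notes, without a version. Their mean after trimming 2% at each end was 150.0 to 150.1 on every array. Of 24128 probe sets, 112 controls were left out. Of the rest, 13292 had 1 gene name, 86 several and 10638 none here. Gene names are those of the platform annotation, and 13263 Entrez identifiers matched the RefSeq gene table (ARS-UCD2.0) with no other symbol. The brightest probe set (mean log2) stood for a gene.

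The authors' scaling was kept, values under the floor (40th percentile, 15.1) were raised to it, and log2 was taken. A fold against a value under the floor is "at least". Pairs of single arrays were compared by size (2-fold, at least 1 side above the floor), without a p-value. Days 21 and 42 were fitted with limma 3.58.1 in R 4.3.3 (day term, variance trend, prior worth 49.8 degrees of freedom, 2 or more of the 4 arrays above the floor). In the TGF-beta3 comparison, limma was tested on simulated data with 14839 probe sets. The 7 members and 13 lists were chosen with earlier results of these data known. Named genes were the members, up to 4 called genes of a list or its brightest, and the 3 most alike by r. PTPRC, ITGAM, CD86, CSF1R, TYROBP, FCER1G, MPO, MMP9, AGER, S100A9 and TLR4, and some not called, were named as defining members after their values were seen. All 10 member probe sets passed the filter. Alternatives covered scaling, floors, thresholds, probe set choice, variance prior, day term and arrays. Tables and plots were made in Python 3.11.15 with matplotlib 3.10.9 and pandas 2.3.3. The number of arrays limits the precision. No sequence is printed, and the constructs' mechanical and biochemical measures were not analysed here.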

Additional observations from a re-analysis of the deposited data

Results flagged for a closer look

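Between days 21 and 42, 3 probe sets went opposite ways with and without TGF-beta3. With 1 array for each, the difference was not tested. S100A12 was log2 0.62 higher at day 42 without TGF-beta3 and changed by -1.15 with it. The brighter CD14 probe set changed by -0.37 without and by 0.69 with TGF-beta3. The second GPNMB probe set changed by 0.45 without and by -0.041 with it, while the brightest one was higher at day 42 in both. Spike signals were log2 1.26 higher at day 42 in the pair with TGF-beta3 and 0.09 higher in the pair without it, and their part in these differences was not tested.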

How the results depend on the processing

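No member's mean difference changed sign under any alternative run. At the main floor and at higher ones, AIF1, CD53 and CD68 could only come out lower, so their sign was set in advance. Of the counts of members, 74 stayed within 1.5-fold of the main count, small changes included, and 23 moved further. With the day term, 6 members passed limma. S100A12, GPNMB and SLC11A1 were chosen from this contrast, and AIF1, CD53 and CD68 could only come out lower at the main floor. Nothing is therefore read from this count or from how it changed. The count was 3 with the floor at a signal of 100, and these were the 3 chosen genes. AIF1 and CD53 were tested there and did not pass, while CD68 and CD14 were not tested. The fits with 1 of the 4 arrays dropped had no day term and left 1 array on 1 side, so no count of members is given for them. When the dropped array was one without TGF-beta3, AIF1, CD53 and CD68 no longer met the filter. They were not tested there, so nothing is read about them from those fits. The day term already pairs the arrays by day. With no replicate block (no day term) 5 members passed, CD68 being lost (adjusted p = 0.073 by limma). A floor at the 60th percentile also gave 5. Apart from the fits with an array dropped, the other alternatives gave 6, including the fit in which the loaded array replaced the unloaded one. Over all probe sets the count of 1954 called became 1030 without the variance trend, 570 without the day term and 340 to 3773 with 1 array also left out. Median centring moved the median difference of the day 42 pair from log2 0.21 to -0.29.

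By size, 7 members were lower at day 21, but 3 with the floor at 100, 5 with it at the 60th percentile and 6 when each gene took its probe sets' median. Higher at day 21 than at day 3 without TGF-beta3 were 5, but 2 at a floor of 100, and lower were 0, but 2 at a 1.5-fold threshold. After loading 1 was lower and 1 higher, but 0 and 0 at the 60th percentile floor and at a floor of 100. Lower after loading were 2 under quantile normalization and 2 at 1.5-fold. From day 21 to day 42 without TGF-beta3, 1 was higher, but 0 with the floor value added and at 3-fold and 2 at 1.5-fold. With TGF-beta3, 1 was lower and 1 higher, but 0 and 0 at both higher floors and at 3-fold, 0 lower with the floor value added and 2 higher at 1.5-fold. The share over all genes is given above for the main setting only, so nothing about the members is read from the counts at other settings. Apart from the fewer genes tested and the thresholds themselves, the cause was not tested. Most members with TGF-beta3 lay near or under the floor, so their true fold is limited by background signal.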
